A study of Arabidopsis thaliana with 13 samples.

Results

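The genes described here rose late in wild-type Arabidopsis thaliana seedlings given the cytokinin 6-benzyl adenine (BA). At 120 min their signals were at least 2 times those of every earlier array, and at 15 min at least 1 of the 2 arrays was under 1.5 times the higher solvent signal. They comprise 50 probe sets of the 22746 on the array that are not controls. A probe set was taken when the lower of its 120 min signals was at least 100 units and at least 2 times the highest of the 4 Col-0 solvent and 15 min signals. In addition, its lower 15 min signal had to be under 1.5 times its higher solvent signal. The members were thus chosen by their own signals in the 6 Col-0 arrays. These signals are deposited values on a linear scale, with values under 1 set to 1. The signal rule was met by 57 probe sets, or 0.251% of all, and 7 of them were left out by name because they belong to other gene groups. Those were the low-oxygen genes AT1G33055, AT5G10040, AT1G19530 and HRA1 (AT3G10040), the expansin EXPA16, and a further pair of probe sets that carry no gene name here. The low-oxygen gene PDC2, peroxidases, UDP-glycosyltransferases, aldehyde dehydrogenases and plastid genes were also to be left out, and none of them met the signal rule under a listed name. Of the 50 members, 26 were listed with 1 gene, 24 were not listed, and these 24 are given by their probe set IDs.

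Seedlings of the wild type Col-0 and of a transgenic line with 35S::CKX1 were grown in liquid MS medium. The 35S promoter drives expression in most tissues, and CKX1 is a cytokinin oxidase, an enzyme that breaks cytokinins down. The line should therefore hold less cytokinin, although CKX1 itself could not be checked, since its name was not listed for any probe set. Neither the BA dose nor the number of transgenic lines is stated in the labels. Col-0 was measured with solvent for 2 h (2 arrays), after 15 min of BA (2 arrays) and after 120 min of BA (2 arrays), and CKX1 with solvent for 2 h (3 arrays) and after 15 min of BA (4 arrays). BA was dissolved in diluted KOH, and the Col-0 seedlings that received it had grown for 6 days. The age of the Col-0 solvent seedlings and of both CKX1 groups is not stated in the labels. The 15 min groups have no solvent control of their own duration, and CKX1 was not measured at 120 min. The labels of Col-0 120 min array 1 disagree, since the title has 120 min of BA but the source field has control solution; it was used by its title. Whole seedlings were used, so a lower signal may mean fewer cells of a type or less RNA per cell, which cannot be told apart. The leaf gene LHCB4.1 and the root gene PYK10 were both high, with Col-0 solvent means of 4606 and 3215 units.

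Cytokinins bind histidine kinase receptors, which pass phosphate through carrier proteins to type-B response regulators in the nucleus. These transcription factors switch on a first set of genes within minutes, among them the type-A response regulators that dampen the signal. Genes that change only later may depend on proteins made in that first wave, on other hormones, or on changes in growth and metabolism that follow treatment. Low-oxygen genes form a separate programme, in which ethylene response factors of group VII are broken down in air and become stable when oxygen falls.

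Because the signals themselves chose the members, the rise in Col-0 is given as a description without a test. With solvent the mean signals of the 50 members ran from 7.8 to 709.5 units with a median of 92.4 units, and after 120 min from 114.5 to 3343 units with a median of 434.6 units. The ratio of the 120 min mean to the solvent mean ran from 2.15 to 35.3 with a median of 3.99, and 25 members reached 4 or more. In 8 members the solvent mean was below 30.5 units, the lowest of the array medians, so their ratios rest on dim signals for which no detection calls were used. Over all 22746 probe sets the median of this ratio was 0.893.

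Arrays stood apart from one another, partly along with the groups and partly within them. Array medians over all probe sets lay between 30.5 and 39.5 units. The 25S ribosomal RNA control was 696 units in Col-0 120 min array 1, 548 units in array 2, 92.5 units in Col-0 15 min array 2, and 260.3 and 804 units in the CKX1 solvent and 15 min arrays numbered 3. In the other 8 arrays it was at most 46.2 units. Within Col-0, both 120 min arrays had a higher 25S signal than every solvent and 15 min array. There, this difference cannot be told apart from the treatment time. Whether this difference between arrays has a part in the late rise was not tested, and the signals of the members described in full in Col-0 15 min array 2 and in the CKX1 arrays numbered 3 are therefore given beside its rise.

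**Figure D1:**
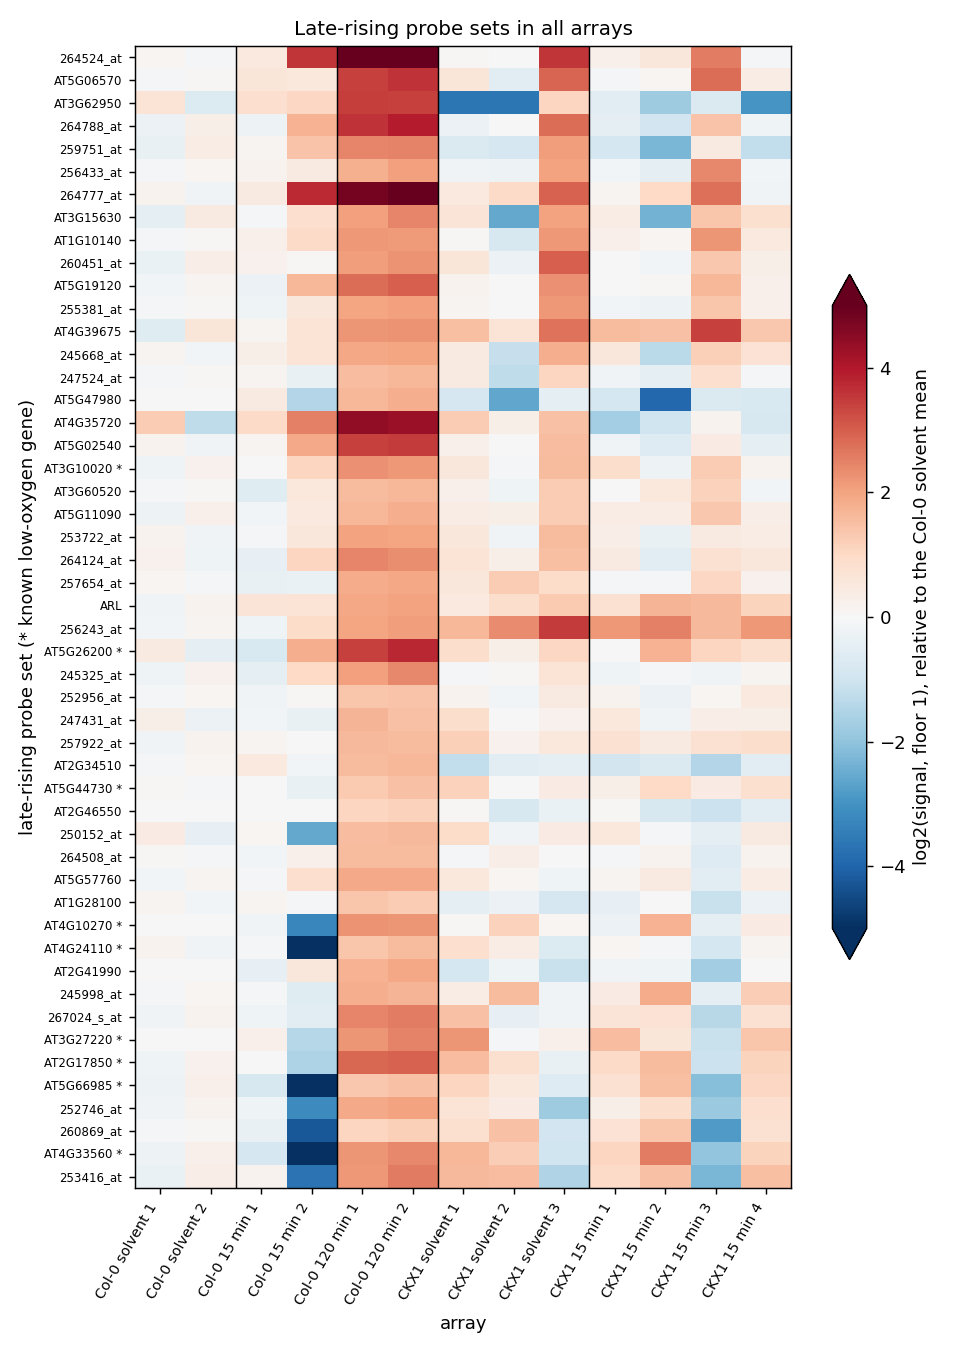
Each row is 1 of the 50 late-rising probe sets and each column 1 of the 13 arrays, and colour gives the log2 signal (floor 1) relative to the mean of the Col-0 solvent arrays, with the scale ending at 5 in either direction. Rows are ordered by how far the CKX1 arrays numbered 3 lay above the other CKX1 arrays, an asterisk marks the 9 genes known from low-oxygen responses, and both Col-0 120 min columns are red throughout because the rule chose the rows so.

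Among members with a known link to hormones or growth, AT5G06570 had the largest ratio of the lower 120 min array to the highest earlier array, 7.12. It encodes a carboxylesterase that breaks down strigolactones, hormones that restrain shoot branching. In Col-0 it had 36.8 and 40.8 units with solvent, 58.2 and 56.1 units after 15 min, and 414 and 479.7 units after 120 min (arrays 1 and 2). In CKX1 it had 58.9, 27.1 and 290.7 units with solvent (arrays 1 to 3) and 36.9, 41.8, 268.2 and 50.2 units after 15 min (arrays 1 to 4). In CKX1 the arrays numbered 3 stood far above the other 5, and even they did not reach the Col-0 120 min level.

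ARL, the ARGOS-like gene, promotes organ growth through cell expansion. Its Col-0 signals were 193.7 and 240.6 units with solvent, 335.7 and 350.3 units at 15 min, and 824 and 878 units at 120 min. CKX1 signals were 305.8, 393 and 529.7 units with solvent and 368, 710.0, 655 and 465 units at 15 min. Its 15 min arrays already lay above both solvent arrays, and all 7 CKX1 arrays were lower than both Col-0 120 min arrays. AT3G62950 encodes a glutaredoxin of the CC type, a plant-specific class of small redox proteins. Solvent arrays of Col-0 gave 19.8 and 7.6 units, 15 min arrays 22.1 and 25.2 units, and 120 min arrays 136.1 and 130.2 units. The CKX1 arrays gave 0.9, 0.9 and 25.9 units with solvent, and 8.4, 3.6, 7.5 and 1.6 units after 15 min of BA. All CKX1 arrays were far below the Col-0 120 min arrays and below the array medians, and the solvent arrays 1 and 2 were under the floor of 1.

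Although the low-oxygen genes named in the rule were removed, 9 of the 26 named members are known as genes that low oxygen raises in Arabidopsis seedlings. They are AT2G17850, AT4G10270, AT3G27220, AT4G33560, AT5G26200, AT5G44730, AT4G24110, AT5G66985 and AT3G10020. The grouping was drawn up from general knowledge after the members were seen, so its size supports nothing by itself. In Col-0 the ratio of the 120 min mean to the solvent mean ran from 2.60 to 11.6 over these 9 genes, with a median of 4.69. AT3G10020 lies close to HRA1, with 1 protein-coding gene between them in the RefSeq TAIR10.1 gene table.

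AT2G17850 encodes a small protein with a rhodanese domain, a fold found in sulfur transferases. Signals of AT2G17850 in Col-0 were 60.1 and 80.7 units with solvent, 70.6 and 24.2 units at 15 min, and 506 and 545 units at 120 min. CKX1 seedlings had 201.6, 120.5 and 54.0 units of AT2G17850 with solvent, and 133.9, 208.3, 32.8 and 152.6 units at 15 min. Col-0 15 min array 2 and the CKX1 arrays numbered 3 were the lowest of their groups. AT4G10270 belongs to a family of small wound-responsive proteins. AT4G10270 measured 99.3 and 100.3 units in Col-0 with solvent, 89.4 and 10.5 units at 15 min, and 478 and 458 units at 120 min. For AT4G10270 in CKX1, solvent arrays gave 102.7, 222.3 and 106.5 units and 15 min arrays 81.2, 332.9, 70.3 and 131.5 units. Here too Col-0 15 min array 2 was low, while CKX1 15 min array 2 was the highest of the CKX1 arrays and stayed under the Col-0 120 min level. AT4G33560 belongs to the same wound-responsive family. In Col-0 it had 71.7 and 100.7 units with solvent, 48.1 and 1.9 units after 15 min, and 396 and 448 units after 120 min (arrays 1 and 2). In CKX1 it had 265.6, 199.3 and 42.7 units with solvent (arrays 1 to 3) and 177.8, 504, 21.5 and 185.5 units after 15 min (arrays 1 to 4). Its highest CKX1 array exceeded both Col-0 120 min arrays, and the pair numbered 3 was the lowest.

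AT3G27220 encodes a protein with kelch repeats. Its Col-0 signals were 38.1 and 36.7 units with solvent, 44.1 and 13.8 units at 15 min, and 174.3 and 210.7 units at 120 min. CKX1 signals were 171.2, 35.2 and 44.9 units with solvent and 107.5, 56.9, 17.2 and 98.8 units at 15 min. CKX1 solvent array 1 came close to the Col-0 120 min arrays, and CKX1 15 min array 3 was the lowest of all CKX1 arrays. AT4G24110 encodes a protein of unknown function. Solvent arrays of Col-0 gave 64.6 and 50.7 units, 15 min arrays 52.8 and 0.7 units, and 120 min arrays 150.4 and 171.0 units. The CKX1 arrays gave 102.5, 73.9 and 36.1 units with solvent, and 60.9, 54.7, 31.5 and 62.3 units after 15 min of BA. The value in Col-0 15 min array 2 was below the floor of 1, the lowest of any member, whereas array 1 of the same group stood at the solvent level.

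AT5G26200 encodes a carrier of the mitochondrial family. Signals of AT5G26200 in Col-0 were 25.7 and 13.6 units with solvent, 10.9 and 65.4 units at 15 min, and 201.9 and 252.7 units at 120 min. CKX1 seedlings had 34.0, 22.7 and 38.1 units of AT5G26200 with solvent, and 18.7, 62.1, 39.8 and 32.4 units at 15 min. Unlike most of this group, Col-0 15 min array 2 was the highest of the early arrays. AT5G44730 encodes a protein of the haloacid dehalogenase-like hydrolase family. AT5G44730 measured 45.6 and 41.4 units in Col-0 with solvent, 44.4 and 33.3 units at 15 min, and 108.9 and 120.1 units at 120 min. For AT5G44730 in CKX1, solvent arrays gave 97.0, 43.8 and 57.0 units and 15 min arrays 53.9, 85.8, 58.2 and 75.2 units. It had the smallest 120 min signals of the group, and CKX1 solvent array 1 came close to the lower one. AT5G66985 and AT3G10020, the other members of the group, encode proteins of unknown function. AT5G66985 went from a Col-0 solvent mean of 160.2 to 417 units at 120 min, with 91.4 and 3.6 units at 15 min. AT3G10020 went from 219.8 to 1007 units, with 214.1 and 462 units at 15 min.

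**Figure D2:**
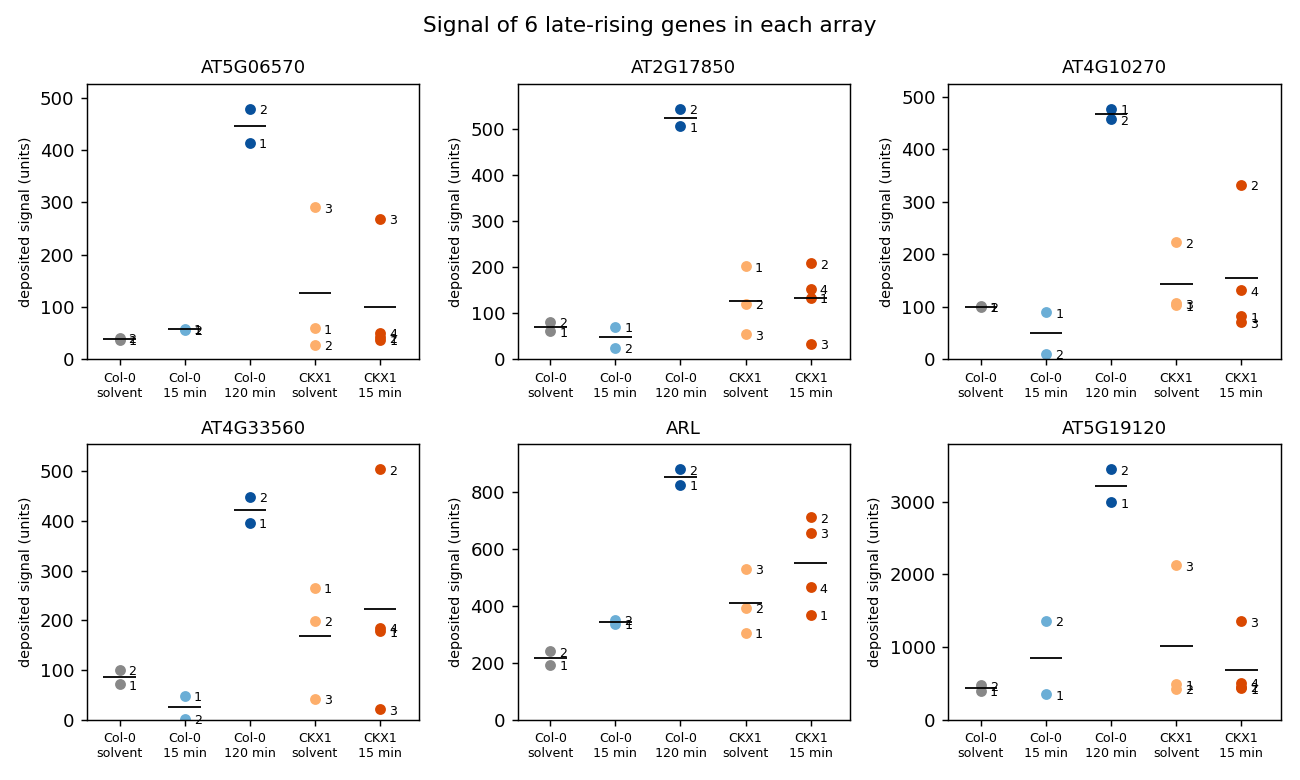
Deposited signal in units (linear axis from 0) of 6 late-rising genes in each of the 13 arrays, where points are arrays labelled by replicate number and bars are group means. AT5G06570 and AT5G19120 are high in the CKX1 arrays numbered 3, AT2G17850 and AT4G33560 are low there, and ARL varies less between arrays.

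Enzymes and wall or secreted proteins formed another part of the named members. AT5G19120 encodes a protein of the aspartyl protease family and had the highest signals of the named members. In Col-0 it had 395 and 476 units with solvent, 352 and 1359 units after 15 min, and 2989 and 3442 units after 120 min (arrays 1 and 2). In CKX1 it had 489, 429 and 2122 units with solvent (arrays 1 to 3) and 433, 454, 1356 and 510.1 units after 15 min (arrays 1 to 4). Col-0 15 min array 2 and both CKX1 arrays numbered 3 lay between the low arrays and the Col-0 120 min arrays. AT5G02540 encodes a dehydrogenase with a Rossmann fold. Its Col-0 signals were 37.5 and 29.0 units with solvent, 36.2 and 123.3 units at 15 min, and 353 and 374 units at 120 min. CKX1 signals were 39.4, 33.3 and 95.8 units with solvent and 29.2, 20.9, 44.0 and 23.4 units at 15 min. All 7 CKX1 arrays were under the signal of Col-0 15 min array 2. AT5G47980 encodes an acyltransferase of the BAHD family, which acylates specialised metabolites. Solvent arrays of Col-0 gave 79.7 and 81.9 units, 15 min arrays 111.4 and 28.9 units, and 120 min arrays 252.4 and 287.2 units. The CKX1 arrays gave 44.8, 13.3 and 57.1 units with solvent, and 44.0, 5.3, 49.4 and 48.0 units after 15 min of BA. The CKX1 arrays numbered 2 were the lowest of each treatment, and no CKX1 array reached the lower Col-0 solvent signal. AT2G34510 encodes a wall-associated protein of the DUF642 family. Signals of AT2G34510 in Col-0 were 149.1 and 168.8 units with solvent, 220.4 and 145.4 units at 15 min, and 479.6 and 504.5 units at 120 min. CKX1 seedlings had 67.9, 109.3 and 116.2 units of AT2G34510 with solvent, and 83.6, 95.4, 58.1 and 109.3 units at 15 min. It was the only member with all 7 CKX1 arrays below the 4 early Col-0 arrays.

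Proteins of unknown or poorly known function made up most of the rest. AT4G39675 was among the few members with higher signals in CKX1 than in early Col-0. AT4G39675 measured 132.3 and 314.5 units in Col-0 with solvent, 224.3 and 326.6 units at 15 min, and 949.5 and 979 units at 120 min. For AT4G39675 in CKX1, solvent arrays gave 583, 330.8 and 1327.5 units and 15 min arrays 615, 557, 2154 and 518 units. All CKX1 arrays exceeded the 4 early Col-0 arrays, by a small margin in CKX1 solvent array 2, and both arrays numbered 3 exceeded the Col-0 120 min arrays. AT4G35720, of a plant family with the domain DUF241, was dim in every array before 120 min. In Col-0 it had 13.3 and 2.3 units with solvent, 10.6 and 31.4 units after 15 min, and 119.6 and 110.1 units after 120 min (arrays 1 and 2). In CKX1 it had 13.4, 6.7 and 15.1 units with solvent (arrays 1 to 3) and 1.7, 2.8, 6.2 and 3.2 units after 15 min (arrays 1 to 4). Its CKX1 15 min arrays all lay below the CKX1 solvent arrays, at signals near the low end of the array's range.

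AT3G15630 differed widely between CKX1 arrays. Its Col-0 signals were 272.8 and 501 units with solvent, 343.5 and 661 units at 15 min, and 1523 and 2029 units at 120 min. CKX1 signals were 574, 63.2 and 1501 units with solvent and 477, 71.7, 969.8 and 638 units at 15 min. Arrays numbered 2 were far below the others in both CKX1 groups, and arrays numbered 3 were the highest. AT1G10140 shared the high values of arrays numbered 3. Solvent arrays of Col-0 gave 80.4 and 88.3 units, 15 min arrays 100.4 and 165.2 units, and 120 min arrays 374.5 and 368.5 units. The CKX1 arrays gave 87.4, 47.9 and 375 units with solvent, and 99.2, 89.1, 388 and 116.9 units after 15 min of BA. Those 2 arrays reached the Col-0 120 min level, and the other 5 stayed near early Col-0. AT5G11090, a serine-rich protein, had the same order with a smaller spread. Signals of AT5G11090 in Col-0 were 252.7 and 369 units with solvent, 277.4 and 426 units at 15 min, and 973 and 1079.6 units at 120 min. CKX1 seedlings had 392, 370.5 and 738 units of AT5G11090 with solvent, and 392, 391, 782.5 and 384 units at 15 min. No CKX1 array reached the Col-0 120 min signals. AT2G41990 ran the other way in the arrays numbered 3. AT2G41990 measured 117.3 and 114.5 units in Col-0 with solvent, 87.7 and 172.6 units at 15 min, and 385 and 437.5 units at 120 min. For AT2G41990 in CKX1, solvent arrays gave 62.3, 98.6 and 53.7 units and 15 min arrays 103.5, 100.1, 34.3 and 118.6 units. Every CKX1 array was far below the Col-0 120 min signals.

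The remaining 4 named members, AT1G28100, AT5G57760, AT2G46550 and AT3G60520, had 120 min means of 190.2, 145.8, 255.1 and 147.1 units. The corresponding Col-0 solvent means were 76.1, 39.6, 118.4 and 47.9 units. AT3G60520, with the lower 120 min array at 2.04 times the highest earlier array, is also 1 of the 3 members closest to the limit.

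Some unnamed members rose from dim signals. Probe set 264524_at had 25.9 and 22.5 units with solvent and 785 and 921 units at 120 min. Probe set 264777_at had 29.7 and 22.7 units with solvent and 719 and 827 units at 120 min. In both, Col-0 15 min array 2 was already high, at 289.3 and 343 units against 33.7 and 35.5 units in array 1, so the label "late" rests on array 1 for them.

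Of the 5 unnamed members with the largest rule ratio, 267024_s_at came first at 4.93, and its suffix marks a probe set that may bind transcripts of several genes. In Col-0 it had 21.7 and 27.0 units with solvent, 20.8 and 16.6 units after 15 min, and 133.1 and 142.2 units after 120 min (arrays 1 and 2). In CKX1 it had 66.0, 18.4 and 21.3 units with solvent (arrays 1 to 3) and 37.7, 40.2, 9.2 and 41.5 units after 15 min (arrays 1 to 4). All CKX1 arrays were well below both Col-0 120 min arrays. The second was 264788_at. Its Col-0 signals were 20.1 and 30.8 units with solvent, 20.7 and 83.3 units at 15 min, and 304.5 and 375 units at 120 min. CKX1 signals were 20.1, 25.2 and 173.2 units with solvent and 18.1, 12.9, 66.9 and 21.3 units at 15 min. CKX1 solvent array 3 was the highest CKX1 array, and the 5 arrays not numbered 3 stayed at or below the level of Col-0 solvent. The third was 253416_at. Solvent arrays of Col-0 gave 241.7 and 379 units, 15 min arrays 338.3 and 23.3 units, and 120 min arrays 1353 and 1809 units. The CKX1 arrays gave 925, 885 and 105.5 units with solvent, and 588, 825, 62.0 and 855 units after 15 min of BA. Col-0 15 min array 2 and the pair of CKX1 arrays numbered 3 were far lower than the rest. The fourth was 260451_at. Signals of 260451_at in Col-0 were 33.9 and 52.4 units with solvent, 48.6 and 44.2 units at 15 min, and 178.8 and 200.3 units at 120 min. CKX1 seedlings had 63.7, 34.3 and 338.5 units of 260451_at with solvent, and 41.5, 38.4, 106.3 and 51.0 units at 15 min. CKX1 solvent array 3 exceeded both Col-0 120 min arrays. The fifth was 257654_at. 257654_at measured 176.5 and 150.3 units in Col-0 with solvent, 124.9 and 129.2 units at 15 min, and 589 and 617.5 units at 120 min. For 257654_at in CKX1, solvent arrays gave 238.6, 398 and 311.2 units and 15 min arrays 150.6, 150.8, 333.7 and 189.8 units. CKX1 signals spread from the Col-0 solvent level upwards and stayed below both 120 min arrays. The other 19 unnamed members had 120 min means from 118.1 to 3343 units and ratios of the 120 min mean to the solvent mean from 2.19 to 35.3.

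At the 2-fold limit, the members just inside were 259751_at, 260869_at and AT3G60520, with ratios of the lower 120 min array to the highest earlier array of 2.005, 2.038 and 2.044. Just outside were AT5G61590, AT3G08030 and 265478_at, with 1.996, 1.970 and 1.967. AT5G61590 missed the limit with 517 units in the lower 120 min array against 259.2 units in the highest earlier array. 259751_at met it with 818 against 408 units. The set thus has no gap at its edge.

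The number of members depended strongly on Col-0 15 min array 2, mainly through the 2-fold limit. Without any ceiling at 15 min, 52 probe sets met the rule, all 50 among them. When that array was left out of the rule, 324 probe sets met it in place of 50, and all 50 were among them. Without 15 min array 1 the number was 38, of which 36 were among the 50. When the ceiling at 15 min was put on the higher instead of the lower 15 min array, 36 of the 50 remained. The 14 that dropped out included AT4G35720, AT5G26200, AT5G02540, AT1G10140, AT5G19120, AT3G10020 and AT5G57760, in each of which Col-0 15 min array 2 was the higher of its pair. Both 15 min arrays lay above both solvent arrays in 9 members, against 11.6% of all 15922 probe sets tested below, and below both in 7 members, against 15.1%. The rule used these arrays, and nothing is read from these shares.

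In the arrays that stood apart, some members were higher and others lower, as was also so over all tested probe sets. Between the Col-0 15 min arrays, 13 members were at least 2-fold higher in array 2 than in array 1, against 8.4% of tested probe sets, and 11 were at least 2-fold lower, against 14%. In CKX1, where the rule used no array directly, both arrays numbered 3 lay above the other 5 in 20 members (40%), against 16.9% of tested probe sets. They lay below the other 5 in 11 members (22%), against 23.1%. The number 3 mean was at least 2-fold above the mean of the other 5 in 20 members, against 10.2% of tested probe sets, and at least 2-fold below it in 11, against 14.8%. On the log2 scale, the number 3 mean minus the mean of the other 5 CKX1 arrays had a median of 0.41 over the members and of -0.09 over tested probe sets. The difference ran from -3.32 (253416_at) to 2.91 (264524_at). It correlated with the late rise in Col-0 at r = 0.34 over tested probe sets and at r = 0.45 over the members. The rule chose members by that rise, so their shares in the CKX1 arrays numbered 3 are not independent of the rule. It also used both Col-0 15 min arrays directly, so the members' shares between those arrays were shaped by the rule. Nothing is read from the distance of any of these shares to those of tested probe sets.

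The low-oxygen genes and the other named members are counted separately here. Of the 9 low-oxygen genes, 5 were at least 2-fold lower in the CKX1 arrays numbered 3, against 14.8% of tested probe sets. They were AT2G17850, AT3G27220, AT4G33560, AT4G24110 and AT5G66985. In the same arrays 1 was at least 2-fold higher (AT3G10020), against 10.2%. The same 5 genes and AT4G10270, 6 of the 9, were at least 2-fold lower in Col-0 15 min array 2 than in array 1, against 14%. Their array 2 signals, from 0.7 to 24.2 units, were below that array's median of 32.9 units, so no exact ratio is given. AT5G26200 and AT3G10020, 2 of the 9, were at least 2-fold higher in that array, against 8.4%. Of the other 17 named members, 10 were at least 2-fold higher in the CKX1 arrays numbered 3, against 10.2% of tested probe sets. Among them 1 was at least 2-fold lower (AT2G41990), against 14.8%. Because the grouping was made after the values were seen, this split has no test. Here too the shares in the CKX1 arrays numbered 3 and between the Col-0 15 min arrays are not independent of the rule. Nothing is read from their distance to the shares of tested probe sets. Over the 50 members, the number 3 difference in CKX1 and the array 2 difference in Col-0 at 15 min correlated at r = 0.72 (Spearman's rho = 0.65). The rule used the Col-0 15 min arrays to choose the members, and the probe sets share these arrays, so the value is a description only and is compared with no other. AT5G47980 was the only member that moved at least 2-fold in opposite directions, with a lower signal in Col-0 15 min array 2 (28.9 against 111.4 units) and a higher one in the CKX1 arrays numbered 3. What sets these arrays apart was not tested.

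**Figure D3:**
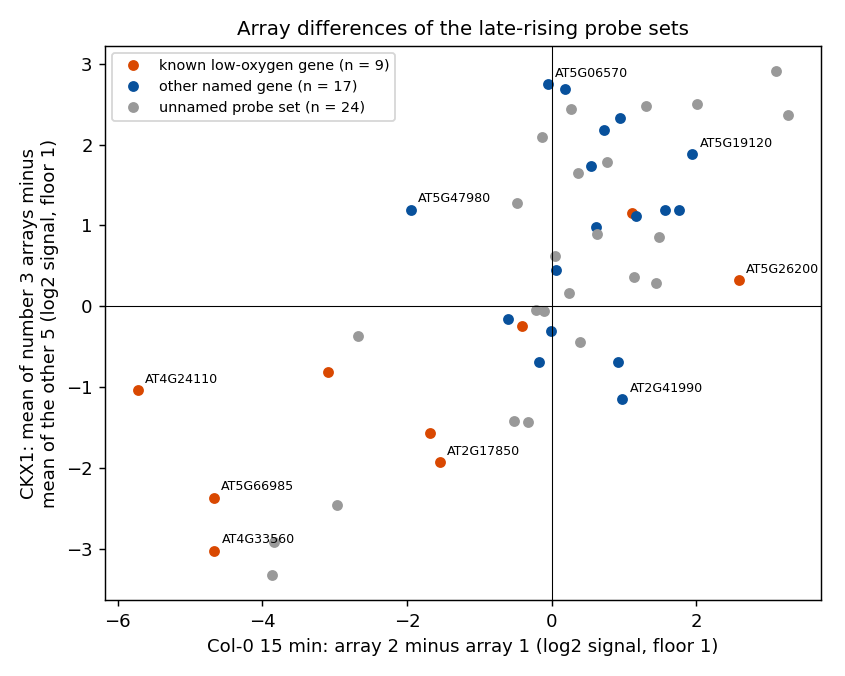
Each point is 1 of the 50 late-rising probe sets, with the log2 difference between the Col-0 15 min arrays (array 2 minus array 1) on the x axis and the log2 difference between the CKX1 arrays numbered 3 and the other 5 CKX1 arrays on the y axis. These differences correlated at r = 0.72, a description only, and points such as AT5G06570 and AT5G26200 lie far from the diagonal. Of the 9 low-oxygen genes, 5 lie at -1 or below on both axes, and 10 of the 17 other named genes lie at 1 or above on the y axis.

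The CKX1 arrays allow the only comparison between groups that the rule did not use, 15 min of BA against solvent in the transgenic line. No member passed the test in it. The linear model of limma was fitted to all 13 arrays and 15922 probe sets, and all 50 members passed its filter on low signals. Its filter and its estimate of the spread used all 13 arrays. The SEs and p-values thus also draw on the Col-0 arrays that chose the members. At an adjusted p under 0.05, 0 of the 50 passed, against 0.00628% of all tested (1 probe set), and the lowest adjusted p among members was 1.00 (limma, Benjamini-Hochberg). At an unadjusted p under 0.05 (limma) there were 2 members, both lower after BA, against 1.37% of all tested, of which 0.835% were higher and 0.534% lower. With the CKX1 arrays alone there were 0, out of the 48 members that then passed the filter. Over the alternative settings this number ran from 0 to 4. On the log2 scale AT4G35720 differed by -1.13 (SE 0.46) and 257654_at by -0.66 (SE 0.29), each with a limma adjusted p of 1.00. AT4G35720 was also the only member whose groups did not overlap, with all 4 BA arrays below the 3 solvent arrays, as in 0.854% of tested probe sets. In 0 members did all BA arrays lie above the solvent arrays, against 1.13%.

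The log2 fold changes of the members in CKX1 ran from -1.13 to 0.41, with 12 above 0 and 38 below. Their median was -0.13, beside -0.002 over all tested probe sets, with an SD of 0.31 between CKX1 arrays in the members' median log2 signal. ARL had the highest value, 0.41 (SE 0.27), and AT5G06570 had -0.20 (SE 0.75). The low-oxygen genes AT2G17850, AT4G10270 and AT4G33560 had -0.003 (SE 0.60), -0.09 (SE 0.63) and 0.08 (SE 0.99). The median became 0.008 without CKX1 solvent array 3 and 0.024 without both arrays numbered 3, with 29 members above 0 in the latter. With the replicate number as a block, since same-numbered CKX1 arrays deviate together, still 0 members passed, while the count over all probe sets was 1 with a fixed and 3 with a random block. In simulated data of the same size, limma recovered 15.9% of probe sets changed by 1 on the log2 scale. Of those changed by 2 it recovered 88.1%, so changes of 1 or less would mostly be missed. The changed probe sets were drawn at random from all tested. These rates therefore do not carry over to members with a large SE, such as AT4G33560 (0.99). The simulated noise was also independent between arrays, whereas same-numbered CKX1 arrays deviated together, so the rates may differ for the real arrays.

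**Figure D4:**
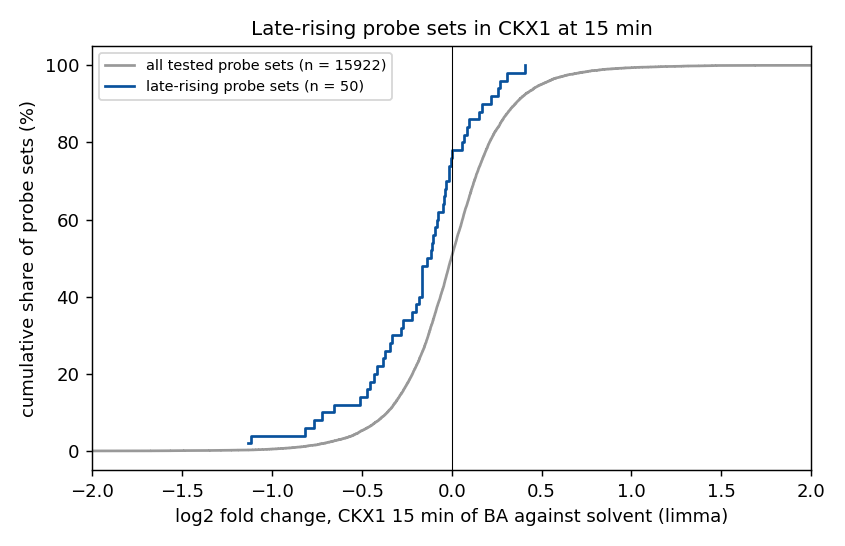
Cumulative share of probe sets (%) by log2 fold change in CKX1 after 15 min of BA against solvent, for the 50 late-rising probe sets and for all 15922 tested. The medians lie at -0.13 and -0.002, and the members' curve runs from -1.13 to 0.41.

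CKX1 levels were mostly below those of Col-0 after 120 min. The CKX1 mean over all 7 arrays, as a share of the Col-0 120 min mean, had a median of 36.1%, and the lowest shares rest on dim CKX1 signals. In 40 members all 7 CKX1 arrays lay below both Col-0 120 min arrays, against 11.5% of tested probe sets, and in 45 members the 5 arrays not numbered 3 did, against 19.4%. The rule required high signals in the 120 min arrays, so these shares are no result about the genotype. The array that most often reached the lower Col-0 120 min signal was CKX1 solvent array 3, in 6 members, followed by CKX1 15 min array 2 in 5 members. The share over all tested probe sets was not counted for single arrays, so nothing is read from these numbers. All 7 CKX1 arrays lay above the 4 early Col-0 arrays in 3 members, AT4G39675, 257922_at and 256243_at, against 1.49% of tested probe sets. In 256243_at the CKX1 mean was 130.5% of the Col-0 120 min mean, the only member above it. All 7 lay below the early Col-0 arrays in 1 member, AT2G34510, against 2.59%. The rule also limited the early Col-0 signals, so these counts are no result about the genotype either.

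Gene length was a feature that the rule did not use, and it is given without a test. The gene spans of the 26 named members ran from 466 to 3761 bases with a median of 1222 bases, against a median of 2275 bases for the 8718 tested probe sets with a gene in the table. The 9 low-oxygen genes had a median of 992 bases and the other 17 a median of 1420 bases. These spans are from RefSeq TAIR10.1 and include introns.

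Genes of cytokinin and other hormone responses, of clock, nitrate and heat responses and of cell types were followed through 14 lists with 101 loci. Only 20 loci had a listed probe set, and 0 of these were members, where members made up 0.22% of all probe sets. Nothing is read from this count, and for the other 81 loci membership is not known, since 24 members have no gene name here. The type-A response regulator ARR15 had 11.3 and 2.7 units with solvent, 119.8 and 57.8 units at 15 min and 80.4 and 61.7 units at 120 min, with both 15 min arrays above both solvent arrays. ARR16 (RR16 in the table) had 19.6 and 16.2, 68.3 and 31.1, and 67.0 and 84.1 units. Cytokinin receptors, cytokinin oxidases and cytokinin response factors had no listed probe set. The auxin-conjugating enzyme GH3.3 came nearest among the auxin genes, with a lower 120 min array at 1.61 times the highest earlier array. Of the listed probe sets, 0 were at least 2-fold above or below all 4 early arrays at 120 min in both arrays.

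Cell type markers were compared because whole seedlings were measured. The 4 measured root markers summed to 3521 to 3690.1 units in Col-0 with solvent, 2531 to 2748 units at 15 min and 3576 to 4079 units at 120 min, mostly through PYK10. In CKX1 the same sum was 3508 to 3957 units with solvent and 2768 to 3794 units at 15 min. The root hair expansins EXPA7 and EXPA18 had means of 149.4 and 197.8 units with solvent and 36.2 and 65.5 units at 120 min. They were already low in Col-0 15 min array 2, at 40.4 and 64.3 units, against 148.1 and 202.8 units in array 1. The root gene AT1G62500 (CO2) went the other way, with 47.9 and 38.4 units with solvent, 58.0 and 197.1 units at 15 min, and 121.7 and 115.6 units at 120 min. It was highest in Col-0 15 min array 2. The leaf marker LHCB4.1 had 4234 and 4978 units with solvent and 6267 and 8940.0 units at 120 min, with 3941 and 6258 units at 15 min, and its CKX1 range was 4090.0 to 6381 units. The shoot meristem marker CLV3 was at most 7.9 units in every array, and markers of vasculature and seed had no listed probe set. The part of such differences in the late rise was not tested.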

How the data were processed

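Per the labels, total RNA (TRIzol) was turned into biotin-labelled cRNA, and an outside centre (RZPD) made the table of normalized values. The deposited values are linear, normalized signal intensities, 1 for each probe set in each of 13 arrays, and 0 columns went unused. How they were summarised and scaled is not stated in the labels. Groups came from the sample titles. Separate cultures are not mentioned for replicates, and the p-values therefore reflect only array-to-array spread, which may be technical. Precision is limited by how few arrays each group has.

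Of 22810 probe sets, 64 controls were left out. The members, the lists and the tests were chosen with earlier results of these data known. Probe sets were named through GEO's platform annotation and updated through the RefSeq table (TAIR10.1). It gave 1 gene for 13513, several for 503 and none for 8730. For limma 3.58.1 in R 4.3.3, values under 1 were set to 1, 3.39 was added before log2 as a pseudocount (0.1 of the median signal, 33.9), and probe sets under the 30th percentile of mean log2 were filtered, which left 15922. Fold changes of limma refer to log2(value + pseudocount), which understates changes of dim probe sets. The model had 5 groups, no block, an intensity trend and 8 residual degrees of freedom, with Benjamini-Hochberg adjustment over all tested probe sets. Only CKX1 at 15 min against solvent was tested. Other group differences and correlations used log2 of the floored signal without a pseudocount. Members named with every array value were the 20 with 1 gene and the 5 unnamed with the largest ratio of the lower 120 min array to the highest earlier array. Members that passed in CKX1, did not overlap between its groups or lay next to the 2-fold limit were also to be named, and other unnamed or low-ratio members named in the text were chosen after their values were seen. Same-numbered CKX1 arrays deviated together from their group means (correlations of 0.63, 0.58 and 0.73). CKX1 solvent array 1 also correlated with 15 min array 4, at 0.47. The same number was taken as a pairing only in the alternative settings with a block, and the main model left it out. The model was tested on simulated data. Alternatives covered the scaling, pseudocount, filter, variance model, block, rule limits and leaving out arrays.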

Additional observations from a re-analysis of the deposited data

Results flagged for a closer look

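In the 4 CKX1 15 min arrays, 8 of the 25 members given with every array value had 1 array far from the other 3, in 7 cases array 3. By the same measure 9.44% of all 15922 tested probe sets had such an array, array 3 in 6.35%. The members share these arrays and are not independent. They were chosen by their rise in Col-0, with which the difference of the CKX1 arrays numbered 3 correlated. Nothing is therefore read from the distance of these counts to the shares of tested probe sets. Array 3 was the highest for AT5G06570 (268.2 units, against a median of 41.8 in the others), AT4G39675 (2154 against 557), AT5G11090 (782.5 against 391), AT1G10140 (388 against 99.2), AT5G19120 (1356 against 454) and 264788_at (66.9 against 18.1). It was the lowest for 267024_s_at (9.2 against 40.2 units). The remaining flag was the low value of AT5G47980 in array 2, at 5.3 against 48.0 units. The high 25S ribosomal RNA signal of array 3, 804 units, accompanies the 7 flags, and its part in them was not tested.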

How the results depend on the processing

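The number of late-rising probe sets, 50, became 137 with a 1.5-fold limit and 15 with a 3-fold limit, and ran from 38 to 324 when each Col-0 array was left out, the highest without Col-0 15 min array 2. It was 64 with arrays centred on their medians and 49 after quantile normalization, of which 50 and 46 were among the original 50. Minimum signals of 50 and 200 units gave 56 and 37. In CKX1, 0 members passed in any of the 20 alternative settings. The count over all probe sets, 1, was 3 with a replicate block as a random term, 1 with a fixed block, 2 with array weights, 1 to 2 with each CKX1 array left out, and 0 when Col-0 15 min array 2 was left out together with the pair of CKX1 arrays numbered 3. The members' median log2 change ran from -0.372 to 0.024 over these settings, within the SD of 0.309 between arrays around -0.125. The sign turned without CKX1 solvent array 3 and without both arrays numbered 3, and neither value was called. The replicate block changed no call among the members. Members with every CKX1 array below both Col-0 120 min arrays numbered 39 to 45. The settings without both CKX1 arrays numbered 3, and all alternatives for this last count, were chosen after seeing the data. With 2 arrays a group in Col-0, members near the 2-fold limit are not separated from those outside it.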
